A study of Mus musculus with 16 samples.

Results

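The nuclear receptors CAR (Nr1i3) and PXR (Nr1i2), the P450 reductase Por and 7 cytochrome P450 genes were followed in 16 mouse livers. The 10 genes, of 17410 in the deposited tables, were taken by symbol: Nr1i3, Nr1i2, Por, Cyp2b10, Cyp3a11, Cyp3a13, Cyp3a25, Cyp1a2, Cyp2e1 and Cyp2a5. All 10 were found in the tables. RNA sequencing gave 4 livers in each of 4 groups, in a pair of experiments on ChREBPα. This transcription factor responds to carbohydrate and is an isoform made from the gene Mlxipl. In the overexpression experiment, wildtype mice aged 2 months at the start were fed HFLMCD for 3 weeks, a diet with 45% of kcal from fat, no choline and 0.1% methionine. They received adenovirus 1 week before dissection, which carried GFP in livers 9 to 12 (Ad_GFP_HFLMCD) and Chrebpα in livers 13 to 16 (Ad_Chrebpa_HFLMCD). In the deletion experiment, all mice carried Chrebpα-flox/flox alleles and ate a NASH diet for 12 weeks, with 40% of kcal from fat, 20% from fructose and 2% cholesterol. They received AAV with the hepatocyte promoter TBG driving GFP (WT_NASH, livers 17 to 20) or Cre (LKO_NASH, livers 21 to 24). TBG limits the deletion to hepatocytes, so other liver cells of LKO_NASH keep the allele. The age in the deletion experiment and the sex of the mice are not given in the labels.

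CAR and PXR are ligand-sensing transcription factors of hepatocytes and gut epithelium that switch on drug-metabolising genes. CAR waits in the cytoplasm in a chaperone complex and moves to the nucleus after exposure to compounds such as phenobarbital, and Cyp2b10 is its classic mouse target. PXR is activated by many steroids and drugs, and Cyp3a11 is its classic mouse target. Both bind DNA as partners of RXR, often at repeats of a hexamer close to AGGTCA. P450 enzymes of the endoplasmic reticulum take their electrons from the reductase encoded by Por. Cyp1a2 is a target of the aryl hydrocarbon receptor, and Cyp2e1, Cyp1a2 and Cyp2a5 are enriched in hepatocytes near the central vein.

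Promoter windows from RefSeq (GRCm38.p6), running from 250 bases before to 50 after a transcription start, were found for all 10 genes. The following 5 are shown 5′ to 3′. Cyp3a25 alone kept its call in every setting of the overexpression comparison, Cyp3a11 is its neighbour on the gene map, Nr1i3 and Cyp2b10 are the receptor and its classic target, and Cyp2a5 differed most between livers among the abundant P450s. Capitals mark matches on either strand. The nuclear receptor hexamer was searched as AGGTCA and in its variant form AGTTCA. The core of the aryl hydrocarbon receptor element was searched as GCGTG, the core promoter box as TATAAA and the E-box as CACGTG. Motifs of the hepatocyte factors HNF1 and HNF4A were searched as GTTAAT and, respectively, CAAAGTCCA.
Cyp3a25 (chr5:146009569-146009868, minus strand): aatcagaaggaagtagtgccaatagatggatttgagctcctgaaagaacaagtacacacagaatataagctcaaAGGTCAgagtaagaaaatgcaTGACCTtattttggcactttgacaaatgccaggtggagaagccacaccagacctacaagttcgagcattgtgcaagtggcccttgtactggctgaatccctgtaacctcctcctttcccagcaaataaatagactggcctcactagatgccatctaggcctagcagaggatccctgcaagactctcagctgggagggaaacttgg
Cyp3a11 (chr5:145879805-145880104, minus strand): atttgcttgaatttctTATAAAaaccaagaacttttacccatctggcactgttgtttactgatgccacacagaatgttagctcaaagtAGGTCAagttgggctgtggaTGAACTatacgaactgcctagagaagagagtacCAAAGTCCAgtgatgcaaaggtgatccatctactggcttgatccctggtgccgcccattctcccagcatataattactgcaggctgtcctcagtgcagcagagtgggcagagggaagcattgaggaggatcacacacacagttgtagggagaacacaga
Nr1i3 (chr1:171213720-171214019, plus strand): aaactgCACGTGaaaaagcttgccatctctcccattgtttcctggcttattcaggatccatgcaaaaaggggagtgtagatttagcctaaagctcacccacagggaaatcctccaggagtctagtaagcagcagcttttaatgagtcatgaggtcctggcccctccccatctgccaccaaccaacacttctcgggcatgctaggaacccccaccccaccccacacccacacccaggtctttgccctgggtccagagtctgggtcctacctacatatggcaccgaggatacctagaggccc
Cyp2b10 (chr7:25897408-25897707, plus strand): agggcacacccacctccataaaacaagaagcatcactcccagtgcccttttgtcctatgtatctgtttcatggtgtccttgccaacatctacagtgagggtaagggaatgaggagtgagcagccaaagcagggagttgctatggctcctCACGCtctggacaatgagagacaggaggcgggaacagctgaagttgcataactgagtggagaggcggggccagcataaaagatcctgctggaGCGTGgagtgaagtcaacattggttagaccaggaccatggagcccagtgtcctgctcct
Cyp2a5 (chr7:26835089-26835388, plus strand): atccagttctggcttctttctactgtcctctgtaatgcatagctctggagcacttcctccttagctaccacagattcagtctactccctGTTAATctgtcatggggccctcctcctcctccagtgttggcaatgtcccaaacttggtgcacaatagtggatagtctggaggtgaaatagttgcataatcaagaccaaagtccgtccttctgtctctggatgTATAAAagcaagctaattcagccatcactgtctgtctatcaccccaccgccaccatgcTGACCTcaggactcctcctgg

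In the Cyp3a25 window AGGTCA stood at -176, counted in bases from the start, and on the opposite strand at -155. A second Cyp3a25 window begins 1 base away and holds the same matches. The Cyp3a11 window held TATAAA far from the start at -234, AGGTCA at -162, AGTTCA on the opposite strand at -142 and CAAAGTCCA at -109. Over their best gap-free alignment these 2 windows were identical at 37.5% of bases (109 of 291). Nr1i3 held the E-box CACGTG at -244, Cyp2b10 held GCGTG at -9 and on the opposite strand at -101, and Cyp2a5 held TATAAA at -29 and GTTAAT at -161. Cyp2a5 also held AGGTCA on the opposite strand at 30 bases after the start. Most of these matches are common and CAAAGTCCA is not. Of 32851 RefSeq windows, 16.3% held AGGTCA, 14.0% AGTTCA, 32.4% GCGTG, 13.6% TATAAA, 7.15% CACGTG, 7.1% GTTAAT and 0.475% CAAAGTCCA, on either strand. No matches overlapped in the printed windows. Direct repeats of AGGTCA or AGTTCA spaced by 1, 3 or 4 bases, and everted repeats spaced by 6, were in none of the 10 genes' windows, and in 0.0822%, 0.0122%, 0.0274% and 0.00913% of all windows.

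The libraries held 21254937 to 40327264 expected counts, the estimated number of fragments from each gene. FPKM, fragments per kilobase scaled to the library's size, is the authors' value and is used for levels. Mlxipl, the targeted gene, had 38.9 to 48.5 FPKM in Ad_GFP_HFLMCD, 44.7 to 47.8 in Ad_Chrebpa_HFLMCD, 50.1 to 80.4 in WT_NASH and 47.5 to 100.1 in LKO_NASH. The groups of each experiment overlapped, so the gene total does not bear out the labels, and all directions below are between livers as labelled. Pklr, a textbook ChREBP target, was lower in Ad_Chrebpa_HFLMCD (62.7 to 78.0 FPKM) than in Ad_GFP_HFLMCD (100.7 to 125.0). Its log2 fold change of -0.54 (edgeR adjusted p = 0.00671) goes against the Ad_Chrebpa_HFLMCD label. Txnip, another textbook target, overlapped between these groups and was not called (log2 fold change 0.35, edgeR adjusted p = 0.347). Neither target was called between LKO_NASH and WT_NASH, so they do not bear out the deletion labels. The log2 fold changes were -0.10 for Pklr (edgeR adjusted p = 0.944) and 0.13 for Txnip (adjusted p = 0.817). Pklr ran from 26.95 to 292.95 FPKM within WT_NASH. The Mlxipl total sums all isoforms, and which exon was deleted was not given in the sources used here. Liver 21 decided the count of calls over all genes in the deletion experiment: edgeR called 0 genes with it, and 166 higher and 254 lower without it. The hepatocyte markers Alb, Ttr and Apoa1 were among a list of 15 that summed to 60653 to 91256 FPKM in every liver. The 20 macrophage markers summed to 1293 to 2548 FPKM on HFLMCD and 159 to 485 on the NASH diet, so in these bulk samples fewer cells of a type and less RNA per cell cannot be told apart. The labels name no batch.

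**Figure D1:**
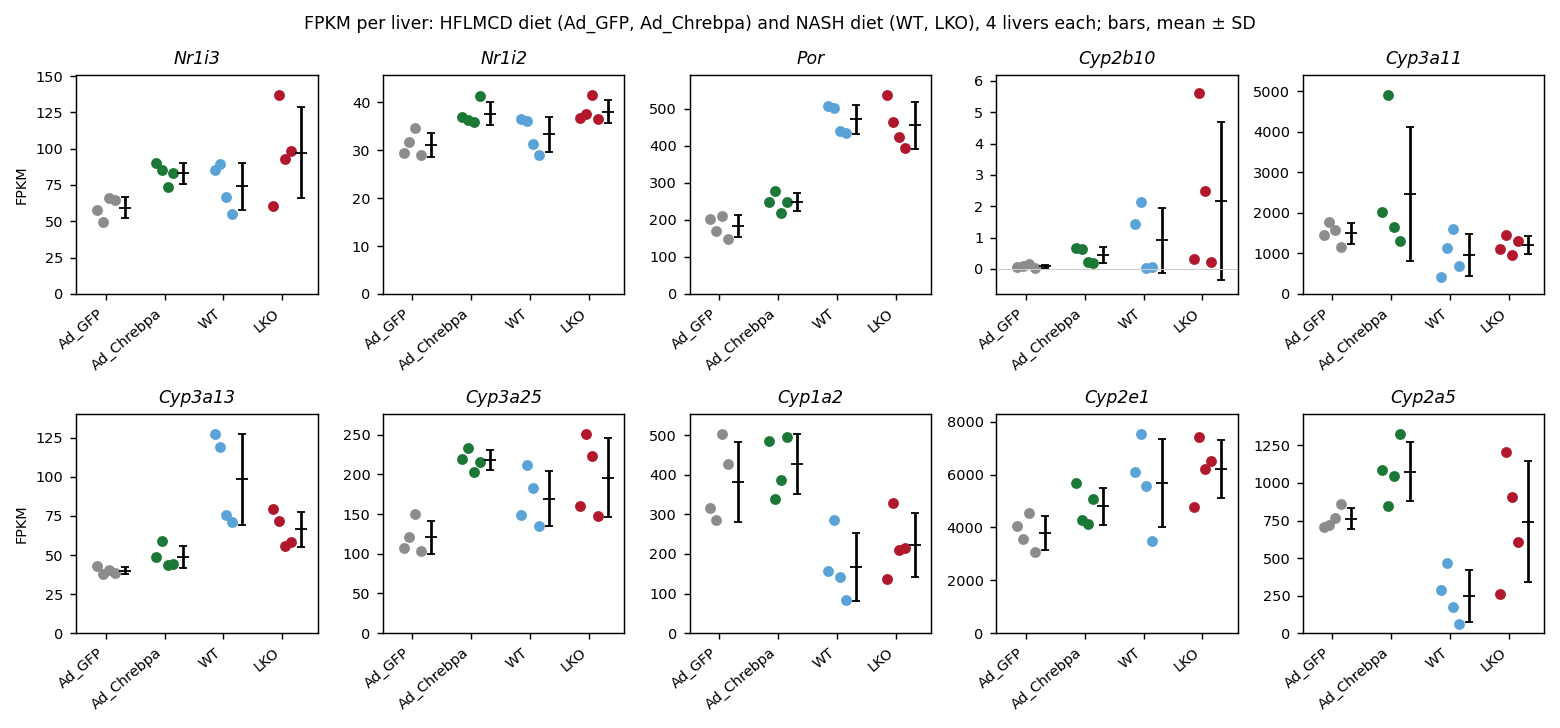
FPKM of each gene in every liver (points, linear vertical axes), with the mean ± SD of 4 livers beside them. Cyp3a25, Nr1i3, Nr1i2, Por, Cyp3a13 and Cyp2b10 separate the Ad_Chrebpa livers from the Ad_GFP livers, and the WT and LKO livers overlap in all 10 panels.

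CAR, PXR, the reductase and Cyp3a25 were higher in the livers labelled Ad_Chrebpa_HFLMCD than in Ad_GFP_HFLMCD. By edgeR's quasi-likelihood test, 6 of the 10 genes rose at a Benjamini-Hochberg adjusted p below 0.05 and 0 fell, where 4.95% of 13658 tested genes were called higher (3.18% lower, 8.13% in either direction). The balance over all genes turned with the scale, from 676 higher and 434 lower by edgeR to 442 and 1026 by limma on log2(FPKM + 1). There 5 of the 10 genes were called higher and 0 lower, and Cyp2b10 was not tested because its mean FPKM was below 1. All 10 fold changes were positive, with a median log2 fold change of 0.53 against -0.01 over all tested genes. The FPKM of the groups did not overlap, with Ad_Chrebpa_HFLMCD above, for 6 genes (Nr1i3, Nr1i2, Por, Cyp2b10, Cyp3a13 and Cyp3a25), against 4.84% of tested genes. The count of 6 depended on the fit: with all 16 libraries in 1 fit, which share 1 estimate of the spread with the NASH livers, Cyp3a25 alone was called. The count was 3 without liver 9, 10, 12 or 16 and 2 without liver 13.

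CAR mRNA (Nr1i3, NCBI gene 12355) stood at 57.7, 49.7, 65.7 and 64.5 FPKM in livers 9 to 12 and at 90.5, 85.4, 73.3 and 82.99 in livers 13 to 16. Every liver with Chrebpα virus was above every GFP liver. The means were 59.4 ± 7.37 and 83.05 ± 7.17 FPKM (SD, n = 4), and the edgeR log2 fold change was 0.55 (SE 0.11, adjusted p = 0.0174). It was called in all 8 fits that left out 1 liver. PXR mRNA (Nr1i2, NCBI gene 18171) had 29.4, 31.6, 34.5 and 29.0 FPKM in the GFP livers and 36.9, 36.4, 36.0 and 41.3 in the Chrebpα livers. This difference was smaller but also without overlap, with a log2 fold change of 0.35 (SE 0.07, edgeR adjusted p = 0.0223), and it was called in 4 of 8 fits that left out 1 liver. CAR exceeded PXR, per length of transcript, by 1.92 ± 0.27 fold in the GFP livers and 2.21 ± 0.22 fold in the Chrebpα livers (SD, n = 4), ranges that overlapped.

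Por (NCBI gene 18984), the electron donor of all microsomal P450s, had 203, 169, 211 and 149.7 FPKM in livers 9 to 12 and 249, 277, 217 and 248 in livers 13 to 16. The lowest Chrebpα liver, at 217, lay just above the highest GFP liver. The log2 fold change was 0.50 (SE 0.12, edgeR adjusted p = 0.0369), and the call was kept in 3 of 8 fits without 1 liver.

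Cyp3a25 (NCBI gene 56388), a liver member of the steroid- and drug-oxidising CYP3A family, had 107, 122, 149.65 and 104 FPKM in the GFP livers and 219.5, 234, 203 and 215 in the Chrebpα livers. The means were 120.7 ± 20.8 and 218.0 ± 12.7 FPKM (SD, n = 4), and relative to its mean the spread among the Chrebpα livers was the smallest of the 10 genes. The log2 fold change was 0.92 (SE 0.11, edgeR adjusted p = 0.00217), a 1.9-fold difference, and it was called under all 9 alternative settings and all 8 fits without 1 liver. Its neighbour on the RefSeq gene map, Cyp3a59, rose alongside, from 9.5, 13.1, 10.7 and 7.14 FPKM to 21.2, 19.1, 14.1 and 15.4 (log2 fold change 0.87, SE 0.18, edgeR adjusted p = 0.0200). Reads of these similar genes may be shared, so which of them rose is uncertain from these counts.

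Cyp3a11 (NCBI gene 13112), the most abundant CYP3A gene here, did not pass. It had 1451, 1776, 1583 and 1159.9 FPKM in the GFP livers and 2019.5, 4916, 1639 and 1317 in the Chrebpα livers, so the groups overlapped and liver 14 stood at more than any other liver. The log2 fold change was 0.80 (SE 0.36, edgeR adjusted p = 0.187), and 0.23 without liver 14. Liver 14 was also the highest Chrebpα liver for Cyp3a13, Cyp3a25 and Por, and the lowest for Cyp2a5 and Cyp1a2. Cyp3a13 (NCBI gene 13113), a CYP3A gene that lies apart from the Cyp3a cluster on the RefSeq gene map, had 42.7, 37.6, 40.6 and 38.4 FPKM against 48.9, 58.7, 43.3 and 44.3. Its groups did not overlap, but the log2 fold change of 0.36 (SE 0.10, edgeR adjusted p = 0.0545) missed the threshold. It passed with 1 of 9 alternative settings and in 1 of 8 fits without 1 liver.

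Cyp2b10 (NCBI gene 13088), the classic CAR target, was close to the detection limit on this diet. The GFP livers had 0.06, 0.08, 0.15 and 0.02 FPKM, from 1 to 9 expected counts, and the Chrebpα livers 0.67, 0.63, 0.23 and 0.19, from 11 to 40. The groups did not overlap, and the log2 fold change was 2.56 (SE 0.59, edgeR adjusted p = 0.0305), but the counts are few and the call was kept in 4 of 8 fits without 1 liver. Cyp2b9, a close relative whose reads may be shared with it, had 12.3 FPKM in liver 9 and between 0.18 and 0.86 in the other 7 HFLMCD livers, and Cyp2b13 was at 0.18 or less throughout. Cyp2a5 (NCBI gene 13087), the coumarin and nicotine oxidiser, had 704, 717, 764 and 859.8 FPKM in the GFP livers and 1084, 846, 1048 and 1327 in the Chrebpα livers. Liver 14 fell inside the GFP range, and the log2 fold change was 0.57 (SE 0.13, edgeR adjusted p = 0.0286), called in 2 of 8 fits without 1 liver.

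Cyp2e1 and Cyp1a2 did not pass. Cyp2e1 (NCBI gene 13106), the ethanol- and acetaminophen-oxidising enzyme and the most abundant of the 7 P450s, had 4048, 3547, 4566 and 3065 FPKM in the GFP livers and 5670.5, 4298, 4136 and 5084 in the Chrebpα livers. The groups overlapped, with a log2 fold change of 0.40 (SE 0.15, edgeR adjusted p = 0.126). Cyp1a2 (NCBI gene 13077) had 315, 285, 503 and 427 FPKM against 486, 339, 387 and 496, with a log2 fold change of 0.23 and a 95% interval of -0.21 to 0.67 (edgeR adjusted p = 0.495).

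**Figure D2:**
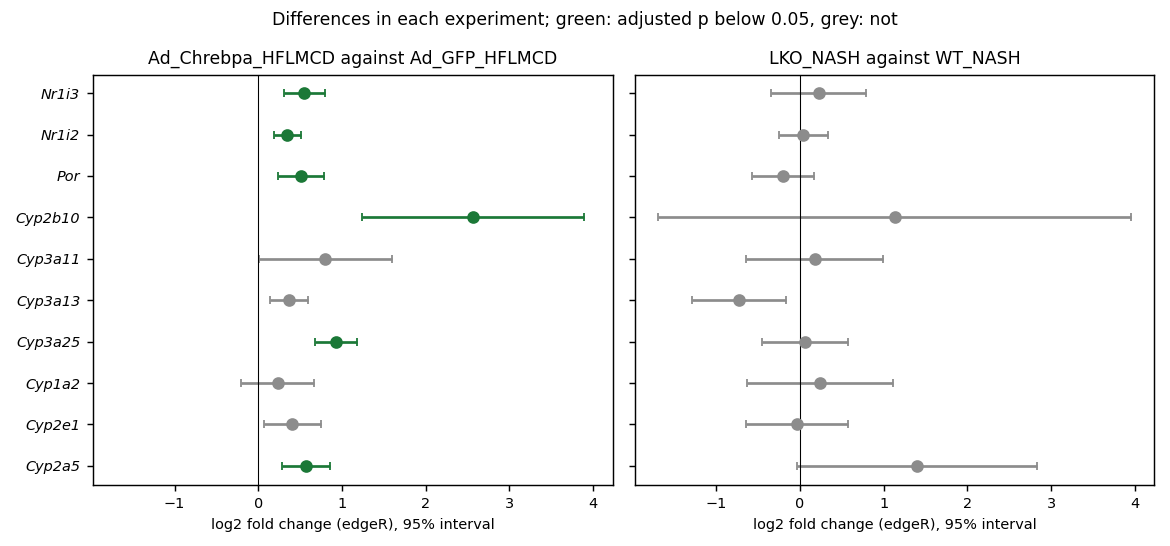
edgeR log2 fold change of each gene (horizontal axis) with its 95% interval, in the overexpression experiment (left) and the deletion experiment (right), on a common scale. Green points passed an adjusted p of 0.05: 6 on the left and 0 on the right, where the intervals of Cyp2b10 and Cyp2a5 are widest.

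Other genes of the pathway were read from lists of partners, enzymes and transporters. Of 26 tested receptor partners and xenobiotic regulators, 3 rose and 1 fell between the livers labelled Ad_Chrebpa_HFLMCD and Ad_GFP_HFLMCD. Ppara, the fatty acid-sensing nuclear receptor, rose by a log2 fold change of 0.49, Foxo1 by 0.39 and the co-chaperone gene Dnajc7, whose protein holds CAR in the cytoplasm, by 0.30. The chaperone gene Hsp90aa1 fell by 0.51 on the log2 scale. Of 13 tested transporters 4 rose and 0 fell, with Abcc2, the canalicular exporter of conjugates, at 0.75 (SE 0.07, edgeR adjusted p = 6.54e-04), and Slco1a1, Abcc3 and Slco2b1 at 0.56, 0.36 and 0.24. Of 38 tested phase II conjugation enzymes 8 rose and 1 fell, with Sult2a8 at 1.09, and Ugt2b38 rising from 0.02 to 0.89 FPKM on average. Of 36 tested other phase I enzymes 4 rose and 1 fell, with Cbr1 at 0.51, Cyp2f2 at 0.47 and Cyp2j5 at 0.46, and the esterase Ces2e fell by 0.44. In electron transfer and haem synthesis 2 of 15 rose (Blvrb at 0.40 and Pgrmc2 at 0.23) and 0 fell. Of 9 tested close paralogues of the P450s, Cyp3a59 alone was called. The medians were 0.09 for the regulators, 0.36 for transporters, 0.18 for phase II, 0.20 for other phase I, 0.02 for electron transfer and -0.55 for the paralogues.

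Of the markers of other liver cells, those of cholangiocytes moved most beside these genes. All 8 tested cholangiocyte markers had negative fold changes in this comparison, and 4 fell (Krt19, Cftr, Epcam and Sox9). The list of 9 summed to 119 to 287 FPKM in the GFP livers and 95.2 to 141.9 in the Chrebpα livers. Of 15 hepatocyte markers 13 were positive and 1 rose (Apoa1 at 0.33), with a median of 0.22. Of 20 macrophage markers 1 rose, with a median of -0.13. Of 12 stellate cell markers 1 rose and 0 fell. No gene was called among 12 sinusoidal endothelium markers or 12 T, NK and B cell markers. Of 20 tested acute-phase and inflammatory genes 7 rose and 0 fell, with Saa1 at 1.07. The part of these shifts in the differences of the P450 genes was not tested.

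Of 14 tested pericentral markers 1 rose (Znrf3) and 1 fell (Slc1a4) in this comparison, with a median of 0.01. Of 14 periportal markers 4 rose and 1 fell, with a median of 0.22, and Pck1, the gluconeogenic enzyme, had a log2 fold change of 1.47. Among 12 tested male-biased liver genes 4 rose and 0 fell (median 0.65), and among 7 female-biased genes 1 rose and 1 fell. The Y-linked Ddx3y was at 10.9 to 15.3 FPKM in all 16 livers.

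None of the 10 genes passed between the livers labelled LKO_NASH and WT_NASH. edgeR called 0 of 12786 tested genes here (0.0%), with 1737 at an unadjusted p below 0.05, and DESeq2 called 88 higher and 71 lower over all genes and 0 of the 10. None of the 10 was called in any setting tried, including the fit without liver 21. All 10 genes overlapped between the groups, where 7.6% of tested genes did not (6.93% with LKO_NASH above). Of the 10 log2 fold changes 7 were positive, with a median of 0.11 against 0.01 over all tested genes.

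CAR mRNA had 85.1, 89.7, 66.9 and 55.1 FPKM in livers 17 to 20 (WT_NASH) and 60.8, 137.2, 92.9 and 98.1 in livers 21 to 24 (LKO_NASH). Liver 22 was the highest of the 16 and liver 21 the lowest of its group, and the log2 fold change was 0.22 with a 95% interval of -0.35 to 0.79 (edgeR adjusted p = 0.666). PXR mRNA had 36.6, 36.2, 31.4 and 28.9 FPKM against 36.7, 37.5, 41.6 and 36.4, a log2 fold change of 0.04 (95% interval -0.25 to 0.33, edgeR adjusted p = 0.890). PXR had the narrowest interval of the 10 genes in this comparison. Por had 509, 503, 441 and 434 FPKM against 538, 465, 423 and 394, a log2 fold change of -0.20 (95% interval -0.57 to 0.17).

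Cyp2a5 had the largest log2 fold change of the 10 here, without passing the test. It had 290.1, 467, 175 and 58.15 FPKM in WT_NASH and 258, 1203, 905 and 606 in LKO_NASH. Livers 22 to 24 were above every WT_NASH liver, and liver 21 fell inside their range. The means were 248 ± 174 and 743 ± 405 FPKM (SD, n = 4), and the log2 fold change was 1.40 (95% interval -0.03 to 2.83, edgeR adjusted p = 0.372). Without liver 21 it was 1.68 (adjusted p = 0.112). Its near-identical relative Cyp2a4 was at 0.26, 0.15, 2.11 and 2.03 FPKM in WT_NASH and 7.06, 5.56, 0.78 and 5.16 in LKO_NASH, so liver 21 was high for Cyp2a4 and low for Cyp2a5. Reads of these relatives may be shared.

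Cyp2b10 was uneven within both groups on this diet. It had 1.44, 2.12, 0.04 and 0.05 FPKM in WT_NASH and 0.32, 5.63, 2.49 and 0.22 in LKO_NASH, from 3 to 85 and from 14 to 330 expected counts. Livers 17, 18, 22 and 23 were above 1 FPKM and the other 4 below 0.4, and the log2 fold change was 1.13 (95% interval -1.69 to 3.95, edgeR adjusted p = 0.656). It ranged from 0.00 to 1.97 when 1 liver was left out. Cyp2b9 had 15.1 and 5.94 FPKM in livers 22 and 23 and at most 1.12 in the other NASH livers.

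Cyp3a13 was the only one of the 10 with an unadjusted edgeR p below 0.05 here, where 1737 of 12786 tested genes had one. It had 127.5, 119, 75.7 and 70.9 FPKM in WT_NASH and 79.3, 71.6, 55.9 and 58.6 in LKO_NASH, so livers 17 and 18 set the WT_NASH mean apart. The log2 fold change was -0.73 (95% interval -1.29 to -0.17, edgeR adjusted p = 0.343), and -0.85 without liver 21 (adjusted p = 0.0828). Cyp3a25 had 148, 212, 183 and 135 FPKM against 161, 251, 224 and 148, a log2 fold change of 0.06 (95% interval -0.46 to 0.57). Cyp3a11 had 417, 1132, 1612 and 689.8 against 1102, 1464, 960.3 and 1297, a log2 fold change of 0.17 (95% interval -0.64 to 0.99).

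Cyp1a2 had 157, 287, 142 and 82.8 FPKM in WT_NASH and 137, 329.7, 209 and 215 in LKO_NASH, a log2 fold change of 0.24 (95% interval -0.64 to 1.11). Cyp2e1 had 6114, 7545, 5579 and 3490.3 against 4782, 7428, 6196 and 6504, a log2 fold change of -0.04 (95% interval -0.65 to 0.58). Liver 20 had the lowest FPKM of the WT_NASH livers for 8 of the 10 genes, all but Cyp2b10 and Cyp3a11.

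In the deletion experiment 0 genes were called in every list of the pathway. The medians between LKO_NASH and WT_NASH were 0.06 for 25 receptor partners and regulators, 0.20 for 34 other phase I enzymes, 0.14 for 38 phase II enzymes and 0.22 for 13 transporters. Of 14 pericentral markers 12 had positive fold changes (median 0.26), and of 14 periportal markers 3 did (median -0.22). Of 20 macrophage markers 19 were positive (median 0.69), and of 18 acute-phase genes 2 were (median -0.81). Other cell types moved too: 11 of 12 sinusoidal endothelium markers (median 0.36) and 11 of 12 stellate cell markers (0.12) were positive. So were 5 of 6 tested T, NK and B cell markers (0.50). Only 4 of 15 hepatocyte markers (-0.18) and 3 of 7 tested cholangiocyte markers (-0.06) were positive. The summed FPKM of the pericentral list ran from 663 to 887 in WT_NASH and from 741 to 1454 in LKO_NASH, and of the macrophage list from 159 to 298.5 and from 229 to 485. Female-biased liver genes had a median of 2.06 (5 tested, all positive) and male-biased genes of -0.68 (12 tested, 3 positive). The part of these shifts in the members' values was not tested.

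Between the 2 control groups, WT_NASH and Ad_GFP_HFLMCD, diet, its length, the virus, the allele and possibly age differ together and cannot be told apart. These groups also serve as the controls above. edgeR called 59.1% of 13488 tested genes (28.2% higher, 30.9% lower), and of the 9 members tested 6 were called higher in WT_NASH and 0 lower. Cyp2b10 was removed by the filter on low counts. Without the filter it was called higher in WT_NASH (log2 fold change 4.14, edgeR adjusted p = 0.0131), as with all 16 libraries in 1 fit (4.18, 0.0145) and by DESeq2 (4.25, 0.00335). It was not called by limma on log2(FPKM + 1) without a filter (adjusted p = 0.132). The choice of scale matters here: over all genes the median difference on log2(FPKM + 1) lay 0.57 below that from counts. On that FPKM scale Nr1i3, Nr1i2 and Cyp2e1 were not called, and Cyp1a2 and Cyp2a5 were called lower by limma, at -1.29 and -1.97. From counts, edgeR also called Cyp1a2 and Cyp2a5 lower without liver 18.

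Por, Cyp3a13 and Cyp3a25 were called higher in WT_NASH under every setting. The WT_NASH livers had 434 to 509 FPKM of Por against 149.7 to 211 in Ad_GFP_HFLMCD, and 70.9 to 127.5 of Cyp3a13 against 37.6 to 42.7. These ranges did not overlap, where 4.51% of tested genes lay without overlap on the higher side of WT_NASH by FPKM and 73.4% on either side. The log2 fold changes were 1.99 for Por (SE 0.15, edgeR adjusted p = 5.58e-06), 1.94 for Cyp3a13 (SE 0.22, adjusted p = 4.96e-05) and 1.12 for Cyp3a25 (SE 0.18, adjusted p = 4.21e-04). Cyp2a5 had 58.15 to 467 FPKM in WT_NASH and 704 to 859.8 in Ad_GFP_HFLMCD, also without overlap, but was not called from counts (log2 fold change -0.96, adjusted p = 0.119). Of 14 pericentral markers 1 was called higher and 9 lower in WT_NASH, and of 14 periportal markers 10 higher and 3 lower. Macrophage markers were called lower in 18 of 20 and hepatocyte markers higher in 14 of 15 (0 lower), and the part of these shifts in the P450 values was not tested.

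Levels per transcript length were ordered alike in the HFLMCD groups and differently in the NASH groups, which differ from them in more than diet. In both HFLMCD groups the means descended from Cyp2e1 through Cyp3a11, Cyp2a5, Cyp1a2, Por, Cyp3a25, Nr1i3, Cyp3a13 and Nr1i2 to Cyp2b10. On the NASH diet the mean of Por was above that of Cyp1a2 in both groups and above that of Cyp2a5 in WT_NASH. Also in WT_NASH, Cyp3a13 was above Nr1i3, and Cyp3a25 (169.7 FPKM) was just above Cyp1a2 (167.0 FPKM). Cyp2e1 was the most abundant in every group mean, with 3806 ± 646 FPKM in Ad_GFP_HFLMCD, 4797 ± 715 in Ad_Chrebpa_HFLMCD, 5682 ± 1681 in WT_NASH and 6228 ± 1097 in LKO_NASH (SD, n = 4). Cyp2e1 made up 57.4 ± 3.43% and 53.8 ± 9.28% of the summed FPKM of the 7 P450s in the HFLMCD groups and 77.6 ± 5.10% and 72.1 ± 2.10% in WT_NASH and LKO_NASH. The NASH livers, at 69.1% to 84.3%, were all above the HFLMCD livers, at 40.2% to 60.7%. Separation was common: by FPKM, 73.4% of tested genes did not overlap between WT_NASH and Ad_GFP_HFLMCD. Cyp3a11 held 15.5% to 46.0% of the sum in HFLMCD livers and 5.75% to 20.8% in NASH livers, ranges that overlapped.

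The 7 P450s together had 5654 to 7606 FPKM in Ad_GFP_HFLMCD, 7455 to 10693 in Ad_Chrebpa_HFLMCD, 4527 to 9764 in WT_NASH and 6520 to 10753 in LKO_NASH. Divided by the FPKM of Por in the same liver, the sum was 36.2 ± 2.46 and 36.3 ± 2.40 in Ad_GFP_HFLMCD and Ad_Chrebpa_HFLMCD, and 15.4 ± 3.95 and 19.5 ± 5.06 in WT_NASH and LKO_NASH (SD, n = 4). The HFLMCD groups differed in this ratio by less than its spread between livers, while the ratio of every NASH liver, at 10.4 to 23.1, was below that of every HFLMCD liver, at 32.9 to 38.6. A ratio within a library does not depend on its total. Separation was common here: by FPKM, 73.4% of tested genes did not overlap between WT_NASH and Ad_GFP_HFLMCD, Por among them. Diet, its length, the virus, the allele and possibly age differ together between these livers.

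**Figure D3:**
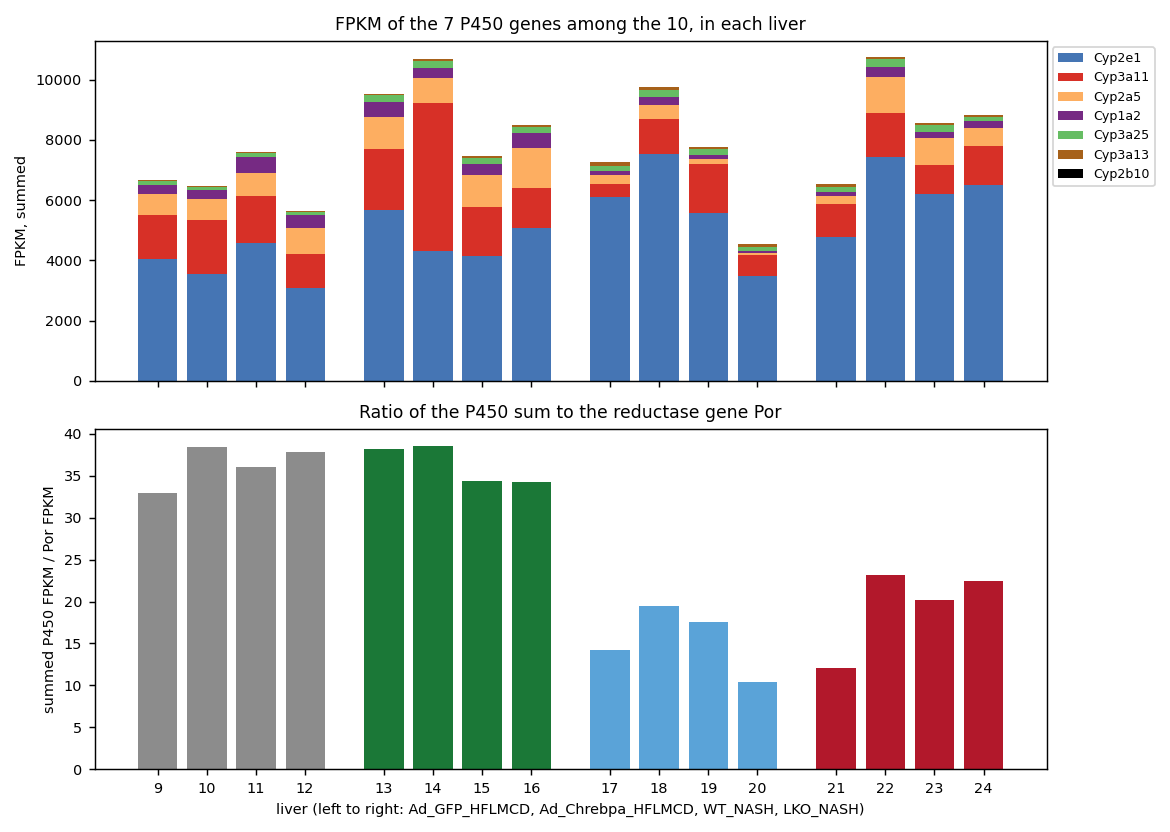
Upper panel: summed FPKM of the 7 P450 genes in each liver, stacked by gene. Lower panel: that sum divided by the FPKM of Por, with HFLMCD livers 9 to 16 at 32.9 to 38.6 and NASH livers 17 to 24 at 10.4 to 23.1.

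Within groups, CAR varied together with the pericentral P450s and Cyp2b10. After subtracting the group mean of log2(FPKM + 1), Nr1i3 correlated across the 16 livers with Cyp1a2 (Pearson r = 0.86, Spearman rho = 0.88), Cyp2a5 (0.84 and 0.76), Cyp2b10 (0.77 and 0.69) and Cyp2e1 (0.76 and 0.79). In the 8 NASH livers these Pearson values were 0.89, 0.90, 0.81 and 0.86, and in the 8 HFLMCD livers 0.74, 0.21, 0.43 and 0.38, so apart from Cyp1a2 they rest largely on the NASH livers. Liver 18 was the highest of WT_NASH and liver 22 of LKO_NASH for CAR and each of these P450s. Livers 20 and 21 were the lowest of their groups for all of them but Cyp2b10. A few livers therefore weigh on these values, and r without them was not computed. Cyp1a2 and Cyp2a5 had r = 0.89 (0.95 in NASH and 0.69 in HFLMCD livers). PXR had r = 0.42 with CAR and -0.25 with Cyp3a11, its classic target. Cyp3a11 had r of 0.42 or less with each of the other 9 genes over all 16 livers, but the experiments differed. In the HFLMCD livers it had r = 0.85 with Cyp3a13, 0.73 with Cyp2b10 and -0.89 with Cyp2a5, and in the NASH livers -0.31, -0.10 and 0.13. Liver 14 had the highest Cyp3a11 (4916 FPKM) and Cyp3a13 (58.7 FPKM) of the HFLMCD livers, so it weighs on these values. Their r without liver 14 was not computed. The difference between the experiments, which differ in more than diet, was not tested. Por varied with Cyp3a13 (r = 0.70 in all, 0.84 in NASH and 0.68 in HFLMCD livers) and not with CAR (0.04). All these points share a library and its scaling, and the values are descriptions of these livers.

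**Figure D4:**
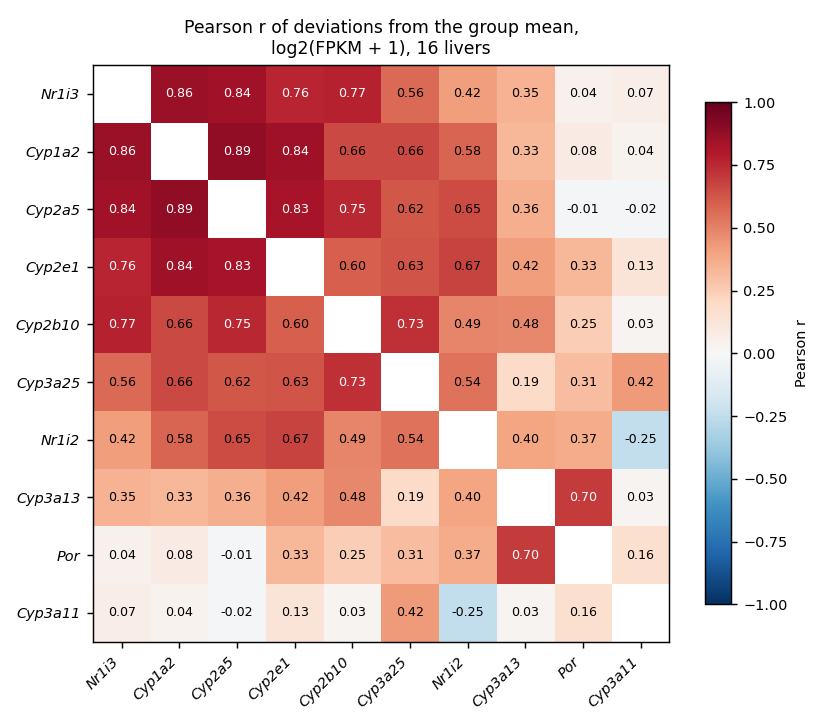
Pearson r between the 10 genes, computed from deviations from the group mean of log2(FPKM + 1) in 16 livers (colour from -1, blue, to 1, red). Nr1i3, Cyp1a2, Cyp2a5, Cyp2e1 and Cyp2b10 have r of 0.60 to 0.89 with each other and of 0.56 to 0.73 with Cyp3a25. Within the HFLMCD livers alone some of these pairs are near or below 0 (Cyp2b10 with Cyp2a5 -0.61, with Cyp1a2 -0.05).

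By the same measure over 10912 genes, the gene most like CAR was Npr2 (r = 0.92), followed by Serpind1 and Lin7a (both 0.91). Cyp1a2 was most like Fgf1 and Acadsb (both 0.93), and Cyp2a5 most like Ivd (0.93), with Fgf1 at 0.92. Cyp2e1 was most like Os9 (0.92), Cyp2c50 (0.91) and Cyp2c54 (0.90). Cyp3a25 was most like its neighbour Cyp3a59 (0.88). Por was most like the oestrogen sulphotransferase gene Sult1e1 (0.85), PXR most like Gpat3 (0.79) and Cyp3a11 most like Mrs2 (0.88). With 16 livers and many genes, high values at the top of such a ranking are common.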

How the data were processed

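RNA of 16 mouse livers was sequenced, 1 library each, and grouped by the sample labels, which do not say that each came from its own animal. The p-values therefore cover only the spread between samples, which may be technical. The deposited expected counts (estimated, not normalised) and the FPKM are the authors' values, per the file headers. Reads were aligned with HISAT2, per the submitters' processing notes, and the counter, annotation and build were not given in the sources used here. In a library 25.3% to 27.2% of expected counts had decimals. After rounding, edgeR 4.0.16 was run in R 4.3.3 (filterByExpr, TMM, two-sided quasi-likelihood F test), 1 fit per comparison with 8 libraries, adjusted by Benjamini-Hochberg over all tested genes. Intervals are 95% intervals of the log2 fold change. Entries of 26 transcripts were summed into their gene. Any 2 libraries of a group differed beyond sampling noise (chi-square per degree of freedom of at least 17.2). The members and the 20 gene lists were chosen with earlier results of these data known. Named genes are the 10 members, up to 4 called genes of a list with the lowest adjusted p, and the 3 genes most like a member. The rule also took 1 gene that is not reported here. Other paralogues were named after their values were seen. Alternatives were DESeq2 1.42.0 and its size factors, limma 3.58.1 (voom, and log2(FPKM + 1) or log2(FPKM + 0.1)), other filters, a single fit of all 16 libraries, a 1.5-fold minimum and omission of single livers. The gene test was tested on simulated data. Promoter windows were searched with Python 3.11.15, pandas 2.3.3 and NumPy 2.4.6, and plots used matplotlib 3.10.9.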

Additional observations from a re-analysis of the deposited data

Results flagged for a closer look

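In 76 groups of 4 livers examined (the 10 genes, 3 ratios and the paralogues with at least 1 FPKM), 2 had 1 liver far from the other 3, and chance flags about 1 in 20 such groups. Cyp2b9 stood at 12.28 FPKM in liver 9 of Ad_GFP_HFLMCD, where the other 3 livers had 0.59 to 0.86. Cyp2a12, a steroid-hydroxylating relative of Cyp2a5, stood at 393.15 FPKM in liver 18 of WT_NASH, where the other 3 livers had 234.23 to 252.06.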

How the results depend on the processing

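No paired analysis was possible because the groups share no replicate numbers. In the overexpression comparison the count of members called was 2 by limma on log2(FPKM + 1) without a filter, 1 with all 16 libraries in 1 fit and 2 at a fold change of at least 1.5, and 2 to 6 when 1 liver was left out. Over all genes it was 1902 by DESeq2, 336 with all 16 libraries and 444 at 1.5-fold, and 400 to 1722 without 1 liver. Members called fell to 3 without liver 9, 10, 12 or 16 and to 2 without liver 13. In the deletion comparison, genes called over all genes were 159 by DESeq2, 152 with all 16 libraries and 0 to 420 without 1 liver, and the members called stayed at 0. Between the control groups 5017 genes passed at 1.5-fold. Directions turned only for members that were not called. In the deletion comparison Cyp2e1 was at 0.17 by limma on FPKM with either pseudocount, filtered or not, and without 1 liver it ranged from -0.24 to 0.14, Nr1i2 from -0.060 to 0.10, Cyp3a11 from -0.073 to 0.52, Cyp3a25 from -0.079 to 0.19 and Cyp1a2 from -0.012 to 0.65. Between the control groups Cyp3a11 was at 0.00088 with DESeq2, 0.0011 with its size factors and 0.040 with all 16 libraries, and ranged from -0.36 to 0.24. Apart from fits with fewer or more libraries, or a fold threshold, the cause was not tested. Few counts limit Cyp2b10, and similar sequences limit the CYP2A, CYP2B and CYP3A genes.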
